A study of Mus musculus with 8 samples.

Results

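The genes described here are 35 genes by which astrocytes are commonly recognised, other than their transporters and channels for glutamate, potassium and water. They were followed on 8 single-colour Agilent microarrays. The list was taken by gene symbol, and each gene was read through the probe with the highest mean signal. All 35 were represented among the 25883 genes tested, and all 35 were well above background on every array. The level of a gene is given throughout as the log2 of its probe signal minus the 75th percentile of that array, so a level of 0 equals that percentile and a difference of 1 is a 2-fold difference. Levels of single genes are set side by side only for the same gene.

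RNA labelled as astrocytic, with spinal cord as the tissue, came from C57Bl/6J mice that were wild type (WT) or labelled as Cx47 deficient. Mice of each genotype were naive, had experimental autoimmune encephalomyelitis (EAE, an autoimmune disease of the spinal cord and brain used to model multiple sclerosis), had EAE and received iguratimod, an anti-inflammatory compound, or were in the chronic phase of EAE. There was 1 array for each of the 8 combinations, and the naive WT array was the study's stated control. The series title describes the Cx47 loss as conditional and specific to oligodendroglia. The WT and Cx47-deficient mice carry the short names FL (or F/F) and icKO in the sample titles, and both chronic titles also hold the tag p50, whose meaning is not given. The promoter that restricted the deletion, the age of the mice, the way the cells were isolated, the dose of iguratimod and whether animals were pooled were not given in the sources used here. Because each combination has 1 array, the p-values rest on how far arrays depart from condition and genotype effects that simply add up. That departure holds any genotype difference that changes with condition, besides spread that may be technical. Separate animals are not stated, so the p-values do not measure the spread between animals.

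Astrocytes are the glial cells that line synapses, vessels and the surface of the spinal cord, supply neurons with metabolites and take up their transmitters. Their identity is set up in development by transcription factors such as Sox9, Nfia and Nfib, under Notch and BMP signals. In the adult it goes with a set of enzymes, carriers, receptors and surface proteins, not all of them exclusive to astrocytes. Astrocytes are coupled to each other and to oligodendrocytes through gap junctions, and in EAE they become reactive, with more of the filament protein Gfap.

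The spinal cord label was checked on 9 Hox genes of the cord, and all 9 were well above background on every array. So were all 5 forebrain markers, all 7 cerebellar neuron markers, all 9 general neuron markers and all 8 oligodendrocyte markers, so markers of other neural cells were measured on every array. The summed signal of the cerebellar list ranged from 27.4 to 230 times the 75th percentile between arrays. Both chronic arrays were scanned on a second slide, slide 2, and had a spike-in slope of 0.764 and 0.762, against 0.92 to 1.065 on slide 1. Between 71.3% and 72.0% of their spots were well above background, against 59.7% to 65.8% on slide 1. Slide and chronic EAE therefore cannot be told apart.

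Across the 6 arrays of slide 1 the identity genes were close to level. The lowest and highest of these 6 arrays differed by less than 1 (2-fold) for 33 of 35 genes, a property that 65.0% of all genes shared. The exceptions were Fabp7 and Hes5. That share is not matched for brightness. On the naive WT array the median level was 2.03 for the 35 and -1.24 for all genes. The median range over the 6 arrays was 0.59 for the 35 and 0.71 for all genes. The narrowest was Aldh1l1, the folate enzyme most used to mark astrocytes, at 3.22 to 3.38. On the chronic arrays most of the genes were lower, and the WT chronic array was the lowest of all 8 for 31 of 35 genes, against 27.8% of all genes. The exceptions were Nfib, Hes5, Rorb and Chrdl1. The summed signal of the 35 genes was 963 and 808 times the 75th percentile in the naive mice, 911 and 770 in EAE, 922 and 806 with iguratimod, and 460 and 665 in chronic EAE. The brightest probes weigh most in this sum, foremost Aldoc (7.93 on the naive WT array) and Sparcl1 (7.78). Of the 963 on that array, secreted proteins made up 365 and enzymes 295. In bulk RNA of this kind fewer astrocytes and less RNA per astrocyte cannot be told apart.

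**Figure D1:**
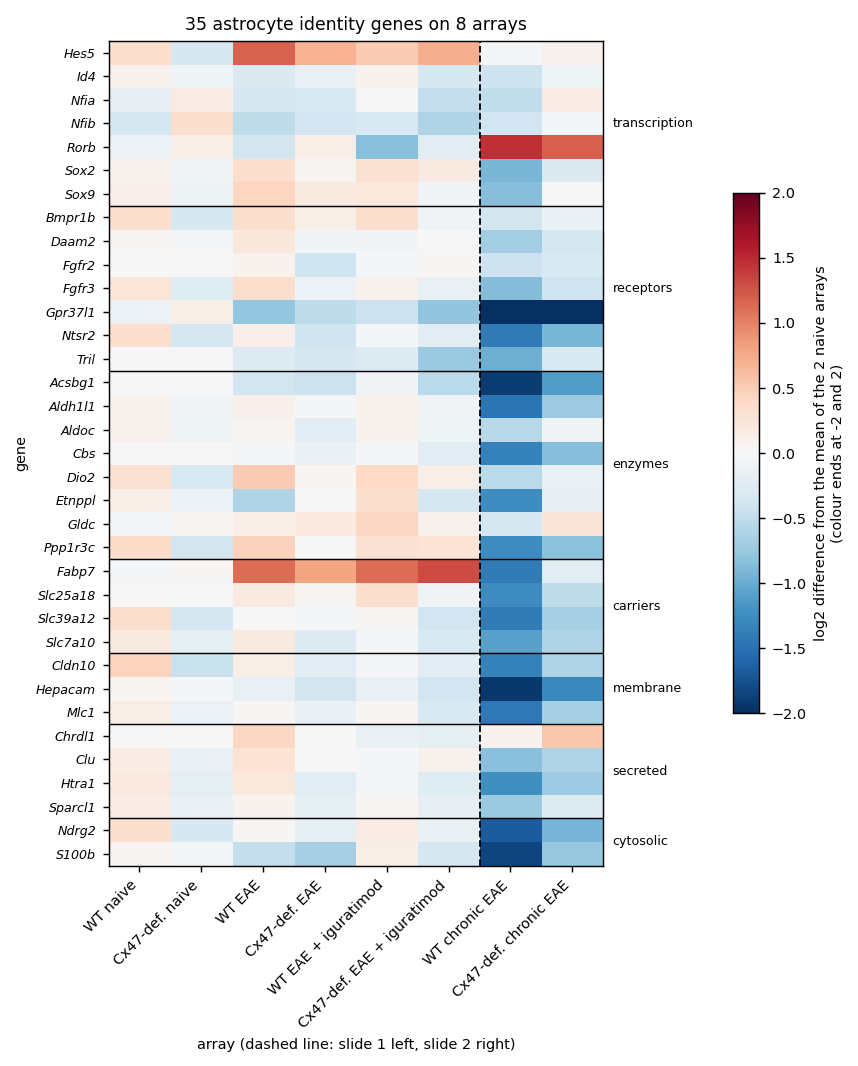
Difference of each of the 35 genes from the mean of the 2 naive arrays, on the log2 scale, with genes in rows grouped by role and arrays in columns. Most rows are near white on slide 1 apart from Fabp7 and Hes5, and blue on the WT chronic array, where Rorb alone is deep red.

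EAE without treatment was compared with the naive state over both genotypes. Fabp7, the brain fatty acid binding protein of radial glia and astrocytes, and Hes5, a transcriptional repressor switched on by Notch, gave the largest positive differences, and the receptor gene Gpr37l1 the largest negative one. Limma, with Benjamini-Hochberg adjustment over all genes, called 0 of the 35 at an adjusted p under 0.05. Over all genes it called 64 higher (0.247%) and 1 lower (0.00386%). Of the 35 only Hes5 had an unadjusted p under 0.05, beside 5.42% of all genes higher and 1.76% lower. The median difference of the 35 was -0.05, close to the -0.06 of all genes, and 14 of 35 were above 0, against 40.5% of all genes. With each array centred on its median in place of its 75th percentile, 19 of 35 were above 0, against 49.6% of all genes.

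Fabp7, with the WT array named first in each pair here and in what follows, read 2.75 and 2.80 in naive mice, 3.89 and 3.56 in EAE, 3.89 and 4.07 with iguratimod, and 1.38 and 2.55 in chronic EAE. All 4 arrays of EAE with or without iguratimod were above both naive arrays, and the WT chronic array was the lowest of the 8. The EAE difference was 0.95 ± 0.38 (SE, adjusted p 0.708), 1.13 in WT and 0.76 in Cx47-deficient mice. Hes5 read 2.20 and 1.55 in naive mice, 3.06 and 2.58 in EAE, 2.38 and 2.60 with iguratimod, and 1.86 and 1.96 in chronic EAE. Its 4 EAE arrays also lay above both naive arrays, by 0.94 ± 0.28 (SE, adjusted p 0.427) without treatment. Another Hes5 probe gave 0.61 for the same comparison. The naive Cx47-deficient array was lower than the naive WT array by -0.65, against a fitted genotype difference of -0.20. That departure is part of the spread behind the error.

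Promoters of 4 genes, Fabp7 and Hes5 as the members with the largest EAE differences and Gpr37l1 and Hepacam as those with the largest chronic differences, are shown as the 250 bases before the start site. They are RefSeq sequences on the GRCm38.p6 build, read 5′ to 3′ on the gene's strand. Capitals mark letters matched on either strand to 5 short motifs. The motif of RBPJ, the protein through which Notch acts on DNA, was written TGGGAA. The arm of the nuclear factor I site was searched with the letters TTGGCA. For SOX proteins the core letters used were ACAAT. For STAT proteins, which act in cytokine signalling, the motif was TTCNNNGAA, where N is any base. The box named for its letters, CCAAT, is common in vertebrate promoters. A CCAAT box on the other strand can share letters with a nuclear factor I site.
Fabp7, chr10:57784673-57784922, plus strand: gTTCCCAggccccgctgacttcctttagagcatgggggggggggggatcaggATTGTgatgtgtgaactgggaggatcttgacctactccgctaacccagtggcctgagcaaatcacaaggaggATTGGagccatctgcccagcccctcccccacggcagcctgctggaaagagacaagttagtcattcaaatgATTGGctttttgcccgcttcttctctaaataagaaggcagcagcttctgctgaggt
Hes5, chr4:154960673-154960922, plus strand: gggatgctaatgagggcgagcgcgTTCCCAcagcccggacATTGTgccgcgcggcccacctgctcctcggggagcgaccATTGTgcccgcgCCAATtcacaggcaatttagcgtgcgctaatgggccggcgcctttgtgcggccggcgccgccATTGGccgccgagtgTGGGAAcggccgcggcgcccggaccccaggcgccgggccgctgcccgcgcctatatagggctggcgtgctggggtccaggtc
Gpr37l1, chr1:135167682-135167931, minus strand: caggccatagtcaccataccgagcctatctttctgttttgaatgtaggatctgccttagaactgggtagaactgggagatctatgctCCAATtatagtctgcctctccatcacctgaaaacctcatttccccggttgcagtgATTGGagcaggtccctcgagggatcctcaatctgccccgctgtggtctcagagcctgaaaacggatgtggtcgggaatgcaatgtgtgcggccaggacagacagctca
Hepacam, chr9:37367356-37367605, plus strand: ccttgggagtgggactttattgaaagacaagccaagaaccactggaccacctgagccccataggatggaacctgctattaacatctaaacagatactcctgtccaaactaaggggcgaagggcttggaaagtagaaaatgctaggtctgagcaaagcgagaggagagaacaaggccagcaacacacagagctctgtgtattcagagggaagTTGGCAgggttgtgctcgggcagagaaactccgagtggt
The Fabp7 window held 1 RBPJ match, 1 SOX match and 2 CCAAT boxes, and the Hes5 window 2 of each of these. The Gpr37l1 window held 2 CCAAT boxes and no letters of the other 4 motifs, and the Hepacam window 1 nuclear factor I match. Of the 35 genes, 30 had at least 1 promoter in the table, with 40 start sites in all, some of them overlapping. Chrdl1, Clu, Sparcl1, Sox9 and Nfib were not matched. The RBPJ letters were found in 17 of the 40 windows (42.5%), in 15 genes, against 21.6% of all 32851 promoters of that length. CCAAT was found in 45% against 33.8%, the nuclear factor I letters in 15% against 12.3%, the SOX core in 22.5% against 27.7% and the STAT letters in 7.5% against 7.02%. The median GC content was 56% in the 40 windows and 52.4% in all promoters. A match of letters is a description of the sequence and not a binding site.

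The other transcription factors differed little in EAE. Sox9, the factor that starts gliogenesis, read -0.89 and -1.08 in naive mice, -0.56 and -0.81 in EAE, -0.78 and -1.04 with iguratimod, and -1.84 and -0.98 in chronic EAE, and Sox2, a factor of neural stem cells kept in astrocytes, 0.89 and 0.75 in naive mice, 1.15 and 0.88 in EAE, 1.12 and 1.00 with iguratimod, and -0.09 and 0.54 in chronic EAE. Both EAE arrays of Sox9 lay above both naive arrays, by 0.30 ± 0.33 (SE, adjusted p 0.929), a difference smaller than its error. Nfib, a nuclear factor I protein of glial maturation, read 2.85 and 3.55 in naive mice, 2.69 and 2.82 in EAE, 2.90 and 2.60 with iguratimod, and 2.82 and 3.17 in chronic EAE, and its relative Nfia 0.32 and 0.66 in naive mice, 0.15 and 0.18 in EAE, 0.48 and 0.01 with iguratimod, and 0.00 and 0.65 in chronic EAE. Their EAE differences were -0.44 ± 0.27 and -0.32 ± 0.30 (SE, adjusted p 0.924 for both), and the naive Cx47-deficient array was the highest of the 8 for both genes. Id4, an inhibitor of helix-loop-helix factors, kept to 0.82 to 1.23 on slide 1.

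Among receptors and signalling proteins, Gpr37l1, an orphan receptor of astrocytes, read 2.61 and 2.86 in naive mice, 1.97 and 2.23 in EAE, 2.32 and 1.95 with iguratimod, and -0.03 and 0.59 in chronic EAE. All 4 arrays of EAE with or without iguratimod lay below both naive arrays, with a difference of -0.64 ± 0.27 (SE, adjusted p 0.764) in untreated EAE and nearly equal values of -0.64 in WT and -0.63 in Cx47-deficient mice. Bmpr1b, a type I receptor for BMP, read -1.25 and -1.90 in naive mice, -1.22 and -1.45 in EAE, -1.22 and -1.64 with iguratimod, and -1.94 and -1.71 in chronic EAE, a difference of 0.24 ± 0.25 (SE, adjusted p 0.928). The bulk of that difference came from the Cx47-deficient pair, at 0.45, against 0.03 in WT. Fgfr3, a fibroblast growth factor receptor typical of astrocytes, ranged from 3.13 to 3.74 on slide 1 and Fgfr2, its relative, from -1.89 to -1.42. Ntsr2, a neurotensin receptor, ranged from 3.40 to 4.13, the Wnt signalling protein Daam2 from 1.28 to 1.56, and Tril, an accessory protein of toll-like receptors, from -1.52 to -0.77.

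Of the enzymes, Acsbg1, which activates long fatty acids, read 4.37 and 4.38 in naive mice, 4.01 and 3.95 in EAE, 4.30 and 3.84 with iguratimod, and 2.47 and 3.25 in chronic EAE, with an EAE difference of -0.39 ± 0.32 (SE, adjusted p 0.924). Dio2, the deiodinase that makes active thyroid hormone, read 1.76 and 1.14 in naive mice, 1.95 and 1.49 in EAE, 1.84 and 1.57 with iguratimod, and 0.92 and 1.30 in chronic EAE, and was 0.27 ± 0.28 (SE, adjusted p 0.928) higher in EAE, less than the genotype difference of -0.62 in the naive pair. S100b, a cytosolic calcium-binding protein, read 6.53 and 6.44 in naive mice, 6.01 and 5.83 in EAE, 6.61 and 6.14 with iguratimod, and 4.65 and 5.72 in chronic EAE. Both untreated EAE arrays of S100b lay below both naive arrays, by -0.57 ± 0.40 (SE, adjusted p 0.924), while the iguratimod arrays overlapped the naive ones. In all, both EAE arrays lay above both naive arrays for 5 of 35 genes (13.4% of all genes) and below both for 9 of 35 (16.7% of all genes). The 5 were Sox9, Fabp7, Slc25a18, Gldc and Hes5, and the 9 were S100b, Acsbg1, Hepacam, Cbs, Gpr37l1, Id4, Nfia, Nfib and Tril.

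Genes of reactive astrocytes stood apart from the identity genes in the same comparison. All 11 measured members of that list were above 0 with a median of 1.22, and 2 of them rose, the lipocalin Lcn2 (5.62 ± 0.50, SE, adjusted p 0.0441) and the protease inhibitor Timp1 (3.01 ± 0.21, SE, adjusted p 0.0338), beside 0.247% of all genes. Both calls were lost in all 8 fits that left out 1 array, which called 0 to 11 of all genes against 65 with every array, while the differences stayed at 4.81 to 6.43 and 2.89 to 3.14. Gfap read 2.14 and 2.42 in naive mice, 3.85 and 3.88 in EAE, 3.19 and 3.52 with iguratimod, and 0.78 and 1.55 in chronic EAE, an EAE difference of 1.59 ± 0.22 (SE, adjusted p 0.0813). Of 12 Notch pathway genes 8 were above 0 and 0 were called, with the ligand Jag1 at 1.04 ± 0.21 (SE, adjusted p 0.183) and the ligand Dll1 at 0.68 ± 0.25 (SE, adjusted p 0.628). Of 13 BMP pathway genes 10 were above 0 and 0 were called, and the BMP target Id1 was at 1.34 ± 0.35 (SE, adjusted p 0.330). None of the 11 fibroblast growth factor genes, 10 gliogenic factors, 9 genes of serine and glycine metabolism, 7 thyroid hormone genes or 12 astrocyte transport genes was called, and their medians lay between -0.14 and 0.08. At an unadjusted p under 0.05 there were 3 Notch, 5 BMP, 1 gliogenic and 1 thyroid hormone gene on the higher side and 1 serine and glycine gene on the lower, and none of the growth factor and transport genes.

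Markers of blood and vessel cells moved with the disease. Of 7 monocyte and macrophage markers 6 were above 0 in untreated EAE, with a median of 3.69. Their summed signal was 41.8 and 42.7 on the naive arrays and 73.7 and 122 on the untreated EAE arrays, and the naive sums were mostly Itgam, which read 5.25 and 5.33 there and 5.11 and 5.02 in EAE. The summed signal of 7 endothelial markers was 4.26 and 1.67 on the naive arrays and 21.1 and 21.9 in EAE. Neutrophil markers went from 1.33 and 1.08 to 8.0 and 12.6, and oligodendrocyte markers from 362 and 315 to 265 and 191. All 7 monocyte, all 7 endothelial and all 5 neutrophil markers were well above background on both EAE arrays. Their part in the differences of the identity genes was not tested.

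Iguratimod-treated EAE was set against the naive state and against untreated EAE, which share arrays and are given side by side. Fabp7 and Hes5 remained the members with the largest positive differences from naive, at 1.21 ± 0.38 (SE, adjusted p 0.512) and 0.61 ± 0.28 (SE, adjusted p 0.735). Limma called 0 of 35 in either comparison, beside 1 gene higher (0.00386%) and 0 lower among all genes against naive, and 0 in either direction against untreated EAE. Before adjustment 1 of 35 had a p under 0.05 against naive, Fabp7, and 0 of 35 did against untreated EAE, where 0.537% of all genes were higher and 1.56% lower. Against naive these shares were 4.11% and 3.34%. The medians of the 35 were -0.07 against naive and -0.02 against untreated EAE, with -0.05 and -0.01 for all genes. Above 0 were 13 of 35 (42.9% of all genes) and 15 of 35 (48.9%), and with median centring 25 of 35 (61.6%) and 23 of 35 (63.8%).

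Against naive the next positive differences were those of Ppp1r3c, which directs a phosphatase to glycogen, Dio2 and Gldc, the decarboxylase of the glycine cleavage system. Ppp1r3c read 1.98 and 1.23 in naive mice, 2.06 and 1.61 in EAE, 1.90 and 1.87 with iguratimod, and 0.34 and 0.78 in chronic EAE, a difference of 0.29 ± 0.32 (SE, adjusted p 0.851), of which -0.07 was in WT and 0.64 in Cx47-deficient mice. Dio2 differed by 0.25 ± 0.28 and Gldc, at 0.08 and 0.17 in naive mice, 0.25 and 0.32 in EAE, 0.54 and 0.20 with iguratimod, and -0.23 and 0.39 in chronic EAE, by 0.25 ± 0.26 (SE, adjusted p 0.851 and 0.839). Another Gldc probe, well above background on 4 arrays, gave the opposite sign in untreated EAE, at -0.45 against 0.16. On the negative side Gpr37l1 differed by -0.60 ± 0.27 (SE, adjusted p 0.733), and Rorb, a nuclear receptor, by -0.52 ± 0.26 (SE, adjusted p 0.748). Tril, at -0.77 and -0.79 in naive mice, -1.04 and -1.12 in EAE, -1.06 and -1.52 with iguratimod, and -1.76 and -1.08 in chronic EAE, differed by -0.51 ± 0.30, Nfib by -0.45 ± 0.27 and Acsbg1 by -0.31 ± 0.32 (SE, adjusted p 0.762, 0.765 and 0.839). All 4 arrays of EAE with or without iguratimod lay above both naive arrays for Fabp7, Gldc and Hes5 (3 of 35, against 8.63% of all genes), and below both for Acsbg1, Hepacam, Cbs, Gpr37l1 and Tril (5 of 35, against 8.62%).

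Against untreated EAE the treated arrays differed most in S100b, by 0.46 ± 0.40, and in Etnppl, an ethanolamine phosphate lyase, by 0.29 ± 0.45. Etnppl read 2.64 and 2.41 in naive mice, 1.93 and 2.52 in EAE, 2.85 and 2.19 with iguratimod, and 1.28 and 2.37 in chronic EAE, so its treated minus untreated difference was 0.92 in WT and -0.33 in Cx47-deficient mice. Fabp7 differed by 0.26 ± 0.38, Fgfr2, at -1.50 and -1.48 in naive mice, -1.42 and -1.89 in EAE, -1.51 and -1.47 with iguratimod, and -1.90 and -1.80 in chronic EAE, by 0.17 ± 0.21, and Id4 by 0.09 ± 0.23. Id4 read 1.23 and 1.06 in naive mice, 0.85 and 0.99 in EAE, 1.21 and 0.82 with iguratimod, and 0.72 and 1.06 in chronic EAE, and the 2 genotypes went opposite ways. On the other side stood Rorb (-0.40 ± 0.26), the secreted BMP antagonist Chrdl1 (-0.37 ± 0.24), Hes5 (-0.33 ± 0.28), Sox9 (-0.22 ± 0.33) and Tril (-0.21 ± 0.30). Chrdl1 read -0.44 and -0.44 in naive mice, -0.03 and -0.44 in EAE, -0.59 and -0.62 with iguratimod, and -0.37 and 0.09 in chronic EAE. The adjusted p of every one of these 10 was 1.00, the errors are SE, and 6 of the 10 differences were smaller than their error.

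**Figure D2:**
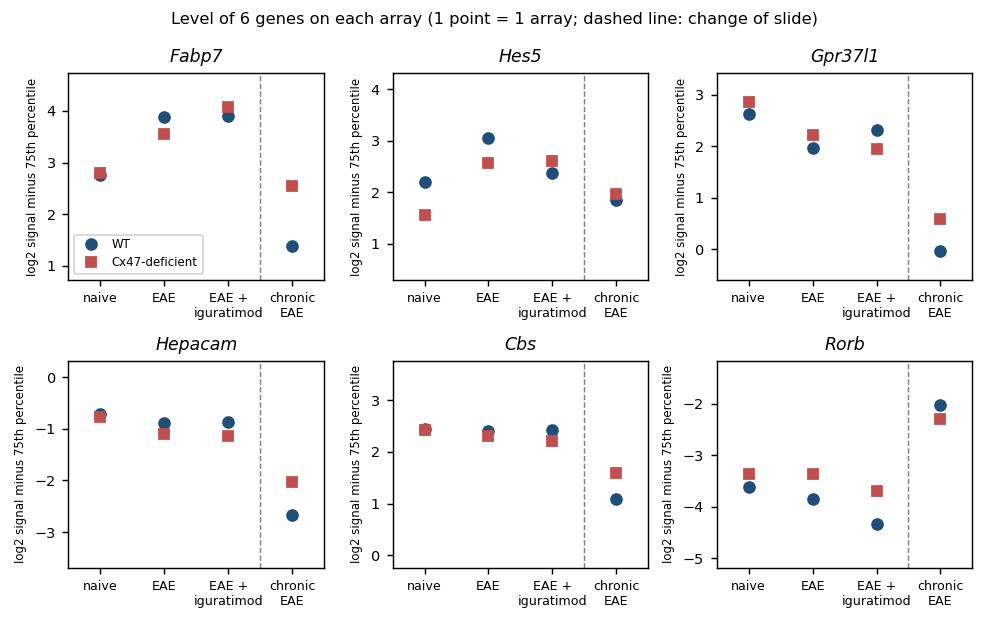
Level of 6 genes on each of the 8 arrays (log2 signal minus the 75th percentile; circles WT, squares Cx47-deficient; 1 point is 1 array). Fabp7 and Hes5 are higher in both kinds of EAE than in naive mice, and right of the dashed line, where the slide changes, Gpr37l1, Hepacam and Cbs sit below and Rorb above all slide 1 arrays.

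In chronic EAE most identity genes were lower than in the naive state. Of the 35 genes 32 were below 0, with a median of -0.70, while 51.9% of all genes were above 0 and their median was 0.03. Gpr37l1 fell, by 5.48-fold, and was the only member called. Rorb, Chrdl1 and Hes5 were the 3 above 0. Limma called 1 of 35 lower, beside 0.232% of all genes, and 0 of 35 higher, beside 0.699%. Before adjustment 15 of 35 were lower at p under 0.05 (13.5% of all genes) and 1 was higher, Rorb (19.0%). Both chronic arrays lay below all 6 others for 21 of 35 genes (24.3% of all genes) and above all 6 for 1 of 35, Rorb (29.2%). With median centring in place of the 75th percentile, 34 of 35 were below 0, with a median of -1.08 beside -0.34 for all genes.

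Against untreated EAE, which shares the chronic arrays, 31 of 35 were below 0, with a median of -0.79 (all genes 0.02, 51.3% above 0). Here 4 of 35 fell, Gpr37l1, Fabp7, Hepacam and Cbs, beside 5.41% of all genes, and 1 of 35 rose, Rorb, beside 9.31%. With median centring 17 of 35 fell and 1 rose, beside 6943 of 25883 genes called in either direction. The median of all genes was then -0.41. Before adjustment 19 of 35 were lower at p under 0.05 (18.0% of all genes) and 1 was higher (23.2%). The calls, of the 35 as of all genes, depended on single arrays. When each array was left out, the median of the 35 ran from -1.19 to -0.37. The call of Gpr37l1 against naive needed every array, as did nearly all calls over all genes. Its difference stayed between -2.74 and -2.16 when each array was left out.

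Receptors and signalling proteins were below 0 in 7 of 7 against naive. Gpr37l1 stood at -0.03 and 0.59 on the chronic arrays, below its slide 1 range of 1.95 to 2.86, with differences of -2.45 ± 0.27 from naive (SE, adjusted p 0.0453) and -1.82 ± 0.27 from untreated EAE (SE, adjusted p 0.0375). Its only probe lies on chromosome 1 at 137057746 to 137057805 of the mm9 build, on the minus strand. Ntsr2 read 4.13 and 3.47 in naive mice, 3.89 and 3.40 in EAE, 3.78 and 3.57 with iguratimod, and 2.38 and 2.88 in chronic EAE, -1.17 ± 0.32 from naive (SE, adjusted p 0.0910). Fgfr3 read 3.63 and 3.13 in naive mice, 3.74 and 3.26 in EAE, 3.47 and 3.23 with iguratimod, and 2.51 and 2.98 in chronic EAE, -0.64 ± 0.29 from naive (SE, adjusted p 0.193). The chronic arrays were the lowest of the 8 for both of these receptors, the WT array lower than the Cx47-deficient one. Daam2 read 0.64 and 1.01 on the chronic arrays, below its slide 1 range, while Tril (-1.76 and -1.08), Bmpr1b (-1.94 and -1.71) and Fgfr2 (-1.90 and -1.80) each overlapped the slide 1 arrays. Their differences from naive lay between -0.64 and -0.25. Other kept probes gave -1.62 for Daam2, -1.15 for Fgfr2 and -1.49 for Fgfr3, further from 0 than the probes used.

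All 8 enzymes were below 0 against naive, with a median of -0.87. Cbs, the cystathionine synthase that starts transsulfuration, read 2.44 and 2.43 in naive mice, 2.40 and 2.31 in EAE, 2.42 and 2.21 with iguratimod, and 1.08 and 1.59 in chronic EAE. Its slide 1 arrays spanned 0.23 and the chronic arrays lay below all of them, with differences of -1.10 ± 0.23 from naive (SE, adjusted p 0.0717) and -1.02 ± 0.23 from untreated EAE (SE, adjusted p 0.0475), the second of which passed the test. Its probe lies on chromosome 17 at 31749593 to 31749652 (mm9, minus strand). Acsbg1 was -1.51 ± 0.32 from naive (SE, adjusted p 0.0727), and both chronic arrays lay below the others. Aldh1l1 read 3.36 and 3.22 in naive mice, 3.38 and 3.24 in EAE, 3.36 and 3.22 with iguratimod, and 1.83 and 2.56 in chronic EAE, flat on slide 1 and lower by 1.53 in the WT and 0.65 in the Cx47-deficient pair (-1.09 ± 0.28, SE, adjusted p 0.0856). Ppp1r3c was -1.04 ± 0.32 from naive and -1.27 ± 0.32 from untreated EAE (SE, adjusted p 0.106 and 0.0545). Etnppl (-0.70), Dio2 (-0.34), the glycolytic enzyme Aldoc (-0.31) and Gldc (-0.04) differed less from naive. Aldoc read 7.28 and 7.77 on the chronic arrays against 7.63 to 7.93 on slide 1, so its Cx47-deficient chronic array overlapped slide 1. The other 2 kept Aldoc probes gave -0.97 and -0.95 against naive, further from 0 than the probe used. Other kept probes gave -0.08 for Acsbg1, -0.845 for Aldh1l1, 1.10 for Gldc, and -0.25 and -1.04 for Etnppl. Those of Acsbg1 and Gldc were well above background on 3 and 4 arrays.

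The 4 carriers were all below 0 against naive. Fabp7 was the carrier with the widest swing, -1.76 ± 0.38 from untreated EAE (SE, adjusted p 0.0451), and -0.81 ± 0.38 from naive (SE, adjusted p 0.200). The fall from untreated EAE was 2.50 in WT and 1.01 in Cx47-deficient mice, and its probe lies on chromosome 10 at 57508039 to 57508098 (mm9, plus strand). Slc39a12, a zinc importer, read 0.08 and 0.82 on the chronic arrays against 1.10 to 1.83 on slide 1. The mitochondrial glutamate carrier Slc25a18 read 0.57 and 1.31 against 1.74 to 2.16, and the serine and alanine exchanger Slc7a10 0.76 and 1.25 against 1.54 to 2.03. None of these 3 overlapped slide 1, and their differences from naive were -1.04 ± 0.37, -0.88 ± 0.31 and -0.84 ± 0.28 (SE, adjusted p 0.130, 0.130 and 0.120). Other kept probes gave -1.30 for Slc25a18 and -0.47 for Slc7a10.

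The 3 surface and junction proteins were below the slide 1 arrays on both chronic arrays. Hepacam, an adhesion protein that anchors Mlc1 at astrocyte contacts, read -0.71 and -0.77 in naive mice, -0.89 and -1.11 in EAE, -0.87 and -1.13 with iguratimod, and -2.67 and -2.02 in chronic EAE. The slide 1 arrays of Hepacam spanned 0.42, and the chronic differences were -1.61 ± 0.27 from naive (SE, adjusted p 0.0631) and -1.35 ± 0.27 from untreated EAE (SE, adjusted p 0.0430), of which the second passed the test. Its probe lies on chromosome 9 at 37193184 to 37193243 (mm9, plus strand). Mlc1, the membrane protein mutated in a vacuolating leukodystrophy, read 5.45 and 5.21 in naive mice, 5.35 and 5.19 in EAE, 5.36 and 5.02 with iguratimod, and 3.90 and 4.66 in chronic EAE, -1.05 ± 0.31 from naive (SE, adjusted p 0.103). Cldn10, a claudin, read 1.88 and 0.97 in naive mice, 1.55 and 1.20 in EAE, 1.40 and 1.19 with iguratimod, and 0.07 and 0.83 in chronic EAE, and its chronic arrays too lay below all others (-0.98 ± 0.40 from naive, SE, adjusted p 0.166).

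Of the cytosolic proteins, Ndrg2, a growth regulator abundant in astrocytes, read 6.46 and 5.82 in naive mice, 6.17 and 5.96 in EAE, 6.31 and 6.00 with iguratimod, and 4.48 and 5.21 in chronic EAE, -1.30 ± 0.35 from naive (SE, adjusted p 0.0916). S100b gave the same difference, -1.30 ± 0.40 (SE, adjusted p 0.106), with the WT chronic array at 4.65 and the Cx47-deficient one at 5.72, just under the slide 1 minimum of 5.83. The secreted proteins had a median of -0.62. The serine protease Htra1 was at 3.72 and 4.22 against 4.71 to 5.16 on slide 1, the chaperone clusterin (Clu) at 5.77 and 6.00 against 6.47 to 6.89, and the matrix protein Sparcl1 at 6.90 and 7.37 against 7.47 to 7.78, all without overlap. Chrdl1 was above 0, by 0.30 ± 0.24 (SE, adjusted p 0.409), a sign that turned under median centring (-0.07).

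Of the 7 roles, the transcription factors had the median closest to 0 against naive, -0.21. That median is the value of Nfib, whose other kept probe gave -0.89. None of the 7 factors was called lower in either comparison, beside 0.232% and 5.41% of all genes. The 4 secreted and 2 cytosolic members were not called lower either. Against untreated EAE, Hes5 and Sox2 were called with normexp and with median centring, beside 7524 and 6943 of 25883 genes. Other kept probes gave -0.51 for Sox9, and -0.09 and 1.00 for Nfia. Rorb read -3.61 and -3.37 in naive mice, -3.86 and -3.36 in EAE, -4.33 and -3.70 with iguratimod, and -2.03 and -2.29 in chronic EAE, and it alone among the 35 was higher on both chronic arrays than on all others. It rose from untreated EAE by 1.45 ± 0.26 (SE, adjusted p 0.0402) and was 1.33 ± 0.26 from naive (SE, adjusted p 0.0697). Its probe, on chromosome 19 at 19050603 to 19050662 (mm9, minus strand), had a mean level below -2, where all 11034 genes of that range had a median chronic difference of 0.53. Sox2 (-0.09 and 0.54) lay below slide 1, whereas Sox9 (-1.84 and -0.98), Id4 (0.72 and 1.06), Nfia (0.00 and 0.65), Nfib (2.82 and 3.17) and Hes5 (1.86 and 1.96) overlapped it. Hes5 was 0.03 ± 0.28 from naive (SE, adjusted p 0.940), but its other kept probe gave -1.35, so the 2 probes disagreed. The first lies on chromosome 4 at 154336361 to 154336420 and the other at 154335350 to 154335409, both in mm9. Against untreated EAE they gave -0.91 and -1.96. Of the 16 genes with several kept probes, 13 gave 1 sign on all of them against naive, the exceptions being Gldc, Hes5 and Nfia. Against untreated EAE 11 did, the exceptions being Acsbg1, Chrdl1, Etnppl, Gldc and Nfib.

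The chronic differences of all genes varied with probe brightness. Among genes with a mean level of 0 to 2 the median of all genes was -0.11 and that of the 12 identity genes there -0.72. At 2 to 4 these were -0.24 and -0.81 (9 identity genes), at 4 to 6 they were -0.41 and -1.17 (4 genes), and from 6 upward -0.41 and -0.51 (3 genes). Below -2 the median of all genes was 0.53. In each of these ranges from 0 upward the identity genes were lower than genes of like brightness, least so among the brightest. The part that the slide's lower spike-in slope and background had in these differences was not tested.

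**Figure D3:**
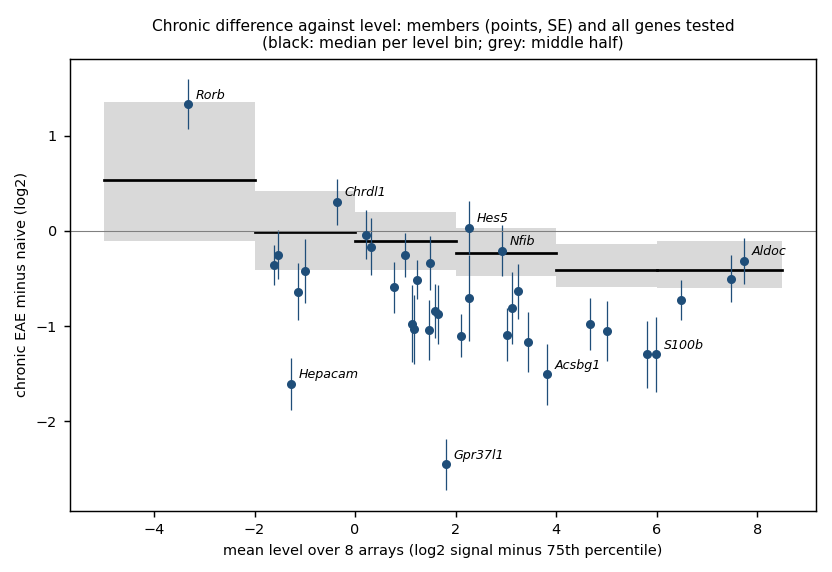
Fitted chronic minus naive difference (log2, bars are SE) of the 35 genes against their mean level over the 8 arrays, with the median (black) and interquartile range (grey) of all 25883 genes in each range of level. Gpr37l1 at -2.45 and Hepacam at -1.61 are the lowest points, and Rorb at 1.33 lies within the grey band of its range.

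Other lists were lower in chronic EAE as well. All 12 astrocyte transport genes were below 0 against naive, with a median of -0.71, and against untreated EAE 2 of them fell (5.41% of all genes), the potassium channel Kcnj10 (-1.35 ± 0.30, SE, adjusted p 0.0466) and Gja1, which encodes connexin 43 (-1.15 ± 0.26, SE, adjusted p 0.0488). Both calls were lost in all 8 fits that left out 1 array. Without the WT EAE, the Cx47-deficient EAE or the WT chronic array limma called 1 gene against untreated EAE, against 3810 with every array. Gja1 read 0.54 and 0.29 in naive mice, 0.54 and 0.64 in EAE, 0.51 and 0.21 with iguratimod, and -0.84 and -0.28 in chronic EAE. All 9 genes of serine, glycine and transsulfuration metabolism were below 0 against naive, with a median of -0.70 and 0 called, among them the serine synthesis enzymes Psat1 (-1.04 ± 0.27) and Phgdh (-0.98 ± 0.25) (SE, adjusted p 0.0850 and 0.0857). Gfap was -1.12 ± 0.22 from naive (SE, adjusted p 0.0700) and fell from untreated EAE by 2.70 ± 0.22 on the log2 scale (SE, adjusted p 0.0233). Of the 11 reactive astrocyte genes measured, 6 fell there, Gfap among them, beside 5.41% of all genes. The Gfap call was lost without the WT EAE, the Cx47-deficient EAE or the WT chronic array. Its difference stayed between -2.98 and -2.43 when each array was left out.

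The signalling lists were mixed, and their counts are to be read beside 9.31% of all genes higher and 5.41% lower against untreated EAE. There 1 of 12 Notch genes rose, the receptor Notch1 (1.75 ± 0.32, SE, adjusted p 0.0408), and 1 fell, the receptor Notch2 (-1.03 ± 0.22, SE, adjusted p 0.0448). Of 13 BMP genes 3 fell and 0 rose, with the BMP target Id3 at -2.06 ± 0.33 (SE, adjusted p 0.0382). Of 11 fibroblast growth factor genes Fgf2 rose (2.33 ± 0.26, SE, adjusted p 0.0286) and the receptor-like Fgfrl1 fell (-1.57 ± 0.29, SE, adjusted p 0.0410). Of 10 gliogenic factors Sox5 rose (1.40 ± 0.25, SE, adjusted p 0.0390) and 0 fell, and of 7 thyroid hormone genes 0 were called. Of the 8 fits that left out 1 array, Fgf2 was called in 4, Id3 in 3, Notch1, Fgfrl1 and Sox5 in 2 each and Notch2 in 0. Against naive 0 genes of these 5 lists were called with limma, although at an unadjusted p under 0.05 there were 3 Notch, 1 growth factor and 2 gliogenic genes higher and 2 Notch, 2 BMP, 3 growth factor and 2 gliogenic genes lower, beside 19.0% and 13.5% of all genes. The medians were 0.10 for Notch, -0.03 for BMP, -0.09 for fibroblast growth factors, -0.14 for gliogenic factors and 0.35 for thyroid hormone genes.

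Markers of some other cells were lower on the chronic arrays, and the fitted medians of others were above 0. Oligodendrocyte markers summed to 100 and 143 on the chronic arrays and to 362 and 315 on the naive arrays. All 8 were below 0 with a median of -2.07, and 1 was called lower, beside 0.232% of all genes. General neuron markers summed to 263 and 286 against 377 and 327, and the cord Hox genes to 3.61 and 5.57 against 13.3 and 9.58. All 9 Hox genes were below 0, with a median of -1.40 and 1 called lower. Below 0 too were 5 of 5 oligodendrocyte precursor (median -0.76), 4 of 5 ependymal (-0.67) and 5 of 7 microglia markers (-0.40). So were 6 of 7 cerebellar neuron (-0.20) and 4 of 6 choroid plexus markers (-0.12), while 4 of 5 forebrain markers were above 0 (0.30). Of all genes 51.9% were above 0. In the fit 7 of 7 monocyte and macrophage markers were above 0 with a median of 0.87, and 5 of 5 neutrophil markers with 1.29. Their sums were higher on both chronic arrays. Also above 0 were 5 of 6 T cell markers (median 1.43), 6 of 7 endothelial (0.65) and 4 of 6 striatal neuron markers (0.71). The sums of these lists were lower in WT and higher in Cx47-deficient mice. They went from 2.13 and 1.21 to 1.43 and 1.31 for T cells, and from 4.26 and 1.67 to 3.23 and 6.22 for endothelium. Striatal sums went from 41.9 and 12.4 to 40.5 and 12.6. On each naive array 3 of the 6 T cell markers were well above background. Every marker of the oligodendrocyte, neuron and Hox lists was well above background on all 8 arrays. Their part in the chronic differences of the identity genes was not tested.

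Genotype was compared over the 4 matched pairs. No member was called, beside 0 of all 25883 genes in either direction, and before adjustment 0 of 35 had a p under 0.05, against 3.30% of all genes higher and 1.12% lower. The fitted differences lay between -0.27 ± 0.18 (SE, Bmpr1b) and 0.27 ± 0.18 (SE, Rorb), with a median of 0.00 and 19 of 35 above 0 (49.2% of all genes). With median centring 5 of 35 were above 0, with a median of -0.17 beside -0.18 for all genes. The median of 0.00 joined pairs that ran opposite ways. In the naive pair 27 of 35 genes were lower in the Cx47-deficient mouse, with a median of -0.17. In the EAE pair 28 of 35 were lower, with a median of -0.23, and with iguratimod 29 of 35, with a median of -0.26. In the chronic pair 34 of 35 were higher, with a median of 0.51, beside 53.2% of all genes. In the other 3 pairs 54.8%, 54.2% and 54.5% of all genes were lower. Markers of brain regions differed within the same pairs. The 7 cerebellar neuron markers summed to 75.2 (WT) and 230 in the naive pair, 27.4 and 112 in EAE, 213 and 64.3 with iguratimod, and 77.5 and 159 in chronic EAE, and in the fit 7 of 7 were higher, with a median of 0.86. The 6 striatal neuron markers summed to 41.9 and 12.4 in the naive pair and 40.5 and 12.6 in the chronic pair, and in the fit 6 of 6 striatal and 5 of 5 forebrain markers were lower. Their part in the genotype differences of the identity genes was not tested.

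In the chronic pair 34 of 35 stayed higher, with medians of 0.50 to 0.57, under normexp background correction, quantile normalization, median centring and the authors' values. In the naive pair the number of genes above 0 was 8 in the fit used here, 14 with quantile normalization and 2 with median centring.

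The pattern of lower in naive, EAE and iguratimod and higher in chronic held for 22 of 35 genes, against 16.1% of all genes. These pairs have 1 array on each side, so the differences have no replicate check. No member differed by 2-fold in the naive, EAE or iguratimod pair, beside 8.01%, 6.62% and 2.57% of all genes higher and 2.65%, 0.690% and 2.27% lower. In the chronic pair 3 of 35 were higher by 2-fold in the Cx47-deficient mouse (1.63% of all genes) and 0 lower (1.29%). The 3 were Fabp7 by 1.16, Etnppl by 1.09 and S100b by 1.07. Rorb was the 1 gene lower there, by -0.26, and it was higher in the other 3 pairs, by 0.24, 0.49 and 0.63. The largest naive differences were those of Cldn10 (-0.90), Ppp1r3c (-0.75), Nfib (0.69) and Slc39a12 (-0.69).

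Other members with larger fitted genotype differences were Dio2 (-0.25 ± 0.20), Ntsr2 (-0.21 ± 0.22), Hes5 (-0.20 ± 0.20) and Ppp1r3c (-0.20 ± 0.23) on the lower side. On the higher side were Fabp7 (0.27 ± 0.27), Nfib (0.22 ± 0.19), Etnppl (0.20 ± 0.32) and Gpr37l1 (0.19 ± 0.19), all with SE. Adjusted p lay between 0.829 and 0.885 for these and for Bmpr1b and Rorb. On the 6 arrays of slide 1 alone the median genotype difference was -0.19 and 3 of 35 were above 0, against 47.0% of all genes. On these arrays 0 of 35 were called, and 6 of 35 had an unadjusted p under 0.05, as did 2395 of 25883 genes.

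The chronic comparison is given here for each genotype. From naive to chronic EAE the median of the 35 was -1.12 in WT mice, where 18 of 35 were lower by 2-fold (9.68% of all genes). In Cx47-deficient mice it was -0.31, with 3 of 35 lower by 2-fold (2.25% of all genes), the 3 being Gpr37l1, Hepacam and Acsbg1. From untreated EAE the medians were -1.24 with 22 of 35 lower by 2-fold in WT (12.6% of all genes), and -0.32 with 2 of 35 in Cx47-deficient mice (5.51%). A genotype-by-chronic term, a test added after seeing these values, set the genotype difference of the chronic pair against that of the other 3 pairs. It left 2 residual degrees of freedom. Such a term fits both chronic arrays exactly, so its error comes from the slide 1 arrays alone and holds no spread of the chronic pair. Its estimate was above 0 for 34 of 35 genes (52.6% of all genes), with a median of 0.84 beside 0.03 for all genes. Limma called 0 of 35, beside 0 of all genes in either direction, and before adjustment 19 of 35 had a p under 0.05 on the higher side (2.48% of all genes) and 0 on the lower (4.01%). S100b was at 1.32 ± 0.29, Sox9 at 1.10 ± 0.24 and Mlc1 at 1.01 ± 0.25 (SE, adjusted p 0.718 for each). The number at an unadjusted p under 0.05 was 1 without either untreated EAE array, 2 without either naive array and 18 without either iguratimod array. The chronic pair is also the only pair on slide 2.

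**Figure D4:**
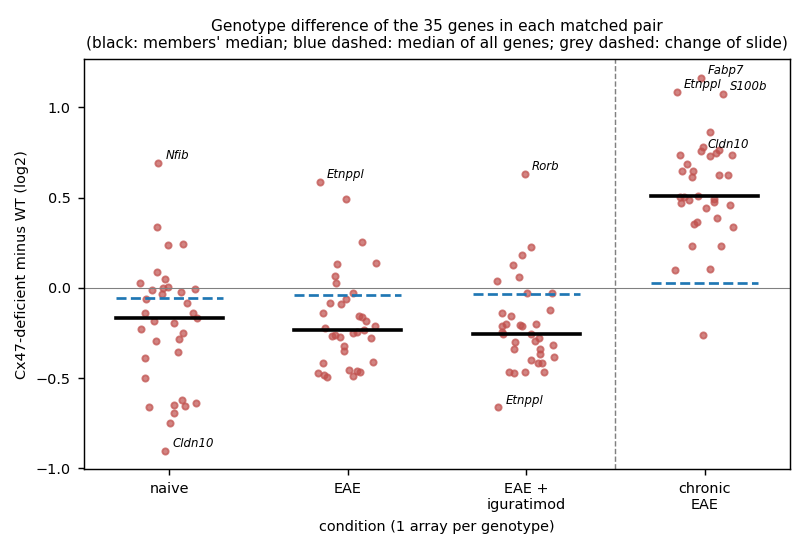
Cx47-deficient minus WT difference (log2) of the 35 genes in each matched pair of arrays, with 1 point for each gene, a black line at their median and a dashed blue line at the median of all genes. The medians are -0.17, -0.23 and -0.26 on slide 1 and 0.51 in the chronic pair on slide 2.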

How the data were processed

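Total RNA was hybridised to single-colour Agilent mouse arrays, 1 per genotype and condition. Per the file headers, the deposited scanner files hold spot intensity after background and spatial correction by Agilent Feature Extraction 10.7.1.1. Version 9.5.1.1 stands in the submitters' processing notes. The authors' deposited value table holds processed intensity on a linear scale, which ranked probes as the scanner values did, and how it was made is not stated in the labels. Other deposited columns are spot flags. No deposited column was left without a sample (0 columns).

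From these, log2 intensity was taken minus the 75th percentile of each array, control and outlier spots were left out, and spots of a probe were averaged. A probe was kept if well above background on at least 2 of 8 arrays. A gene was read through its kept probe with the highest mean. In all 60 probes matched the 35 genes, 55 were kept, and 16 genes had several kept probes. Names came from the files, updated through RefSeq by accession where possible. Limma 3.58.1 (R 4.3.3) fitted condition and genotype over all 8 arrays (lmFit, eBayes), with 3 residual degrees of freedom, and Benjamini-Hochberg adjustment over 25883 genes. Called means an adjusted p under 0.05. The pipeline was tested on simulated data. A genotype-by-chronic term (2 residual degrees of freedom) and its alternatives were added after seeing the data. Differences within a single pair of arrays have no test.

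All 35 genes are accounted for. Full values were given for those called and, in each comparison, the 5 most positive and 5 most negative differences. From related lists, at most 4 genes with the largest differences were given, with Gfap and Gja1 always. The level of the targeted gene is not reported here. The genes and lists were chosen with earlier results of these data known. Alternatives were normexp background correction (offset 50), quantile normalization, median centring, the authors' values, no filter, a filter on all arrays, the mean of probes, no genotype term, slide 1 alone, other fold thresholds and leaving out each array. The number of arrays limits the precision.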

Additional observations from a re-analysis of the deposited data

Results flagged for a closer look

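For 4 genes the Cx47-deficient minus WT difference ran opposite ways in the naive and the chronic pair, by at least 0.5 on the log2 scale in each. The chronic minus naive gap was 1.66 for Cldn10 (from -0.90 to 0.76), 1.42 for Slc39a12 (from -0.69 to 0.73), 1.37 for Ndrg2 (from -0.64 to 0.73) and 1.16 for Ntsr2 (from -0.66 to 0.50). In the EAE pair these differences were -0.35, -0.03, -0.21 and -0.49, and with iguratimod -0.21, -0.40, -0.32 and -0.20. Each rests on 1 array of each kind, and the difference between the naive and chronic pairs alone was not tested. Set against the other 3 pairs together, the chronic genotype difference gave an adjusted p of 0.718 with limma for each of the 4, in a test added after seeing the data. The chronic pair lies on a slide of its own, so slide and disease phase cannot be told apart.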

How the results depend on the processing

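No paired analysis was possible because each group holds 1 array and the labels give no replicate numbers; genotype is a term of the fit instead. Of the 35 genes, 1 was called in chronic EAE against naive, and this count was 12 with normexp, 5 with a filter on all arrays, 3 with median centring, 2 without the genotype term, 0 with quantile normalization, the authors' values or no filter, and 0 to 0 when each array was left out. Against untreated EAE 5 were called, and the count was 19 with normexp, 18 with median centring, 11 with a filter on all arrays, 10 with the mean of probes, 8 without the genotype term, 1 without a filter and 0 to 6 when each array was left out. The calls over all genes changed as well. Against naive they were 241 of 25883 in the fit used here, 3870 with normexp and 1208 with median centring. They were 19 with quantile normalization, 12 of 25884 with the authors' values and 25 of 37007 without a filter. They were 1821 of 20386 with a filter on all arrays and 889 without the genotype term. Against untreated EAE they were 3810, then 7524 with normexp, 6943 with median centring and 4513 with the mean of probes. They were 4736 with a filter on all arrays, 4274 without the genotype term and 1049 of 37007 without a filter. In the other comparisons 0 of the 35 were called under every alternative. The chronic medians ran from -1.08 to -0.24 against naive and from -1.19 to -0.37 against untreated EAE when each array was left out, lowest without the Cx47-deficient and highest without the WT chronic array. Median centring shifted the median of all genes to -0.34 against naive and -0.41 against untreated EAE.

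The EAE median of the 35 was -0.016 with normexp, -0.014 with quantile normalization and with the authors' values, 0.0099 with median centring, -0.081 with the mean of probes and -0.142 to 0.134 leaving out arrays. The iguratimod medians were, against naive and untreated EAE in turn, -0.12 and -0.047 with quantile normalization and with the authors' values, 0.075 and 0.070 with median centring, -0.12 and -0.041 with the mean of probes, and -0.171 to 0.099 and -0.185 to 0.117 leaving out arrays. The genotype median in the EAE pair was -0.58 with median centring. For the genotype-by-chronic term, the number of the 35 at an unadjusted p under 0.05 ran from 1 to 18 leaving out arrays of slide 1 and from 13 to 23 under the other scalings, against 19, and 0 were called under each; its median ran from 0.72 to 1.15.

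Single genes changed sign as follows, and the cause was not tested. With median centring Hes5 was -0.34 and Chrdl1 -0.072 in chronic EAE against naive, and Nfia -0.28, Nfib -0.20 and Chrdl1 -0.33 against untreated EAE. With the mean of probes Gldc was -0.55 for iguratimod against naive, Hes5 -0.66 for chronic against naive and Chrdl1 -0.0067 for chronic against untreated EAE. Leaving out each array in turn gave ranges that crossed 0 for 14 differences. They were -0.017 to 0.498 for Bmpr1b in EAE. For iguratimod against naive they were -0.048 to 0.544 for Gldc and -0.081 to 0.651 for Ppp1r3c and -0.659 to 0.048 for Acsbg1. For iguratimod against untreated EAE they were -0.135 to 0.655 for Fabp7, -0.099 to 0.430 for Fgfr2, -0.542 to 0.117 for Tril, -0.148 to 0.337 for Id4 and -0.28 to 0.866 for Etnppl. In chronic EAE they were -0.26 to 0.333 for Hes5 against naive, and -0.201 to 0.405 for Chrdl1 and -0.18 to 0.497 for Nfia against untreated EAE. The genotype differences ran from -0.031 to 0.465 for Fabp7 and from -0.10 to 0.482 for Etnppl, the lower ends being those of slide 1 alone.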
